A study of Mus musculus with 9 samples.

Results

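Ion channels were examined in endothelial cells sorted from the retinas of newborn mice, as 186 probe sets for 113 genes among the 36701 probe sets of the deposited tables. A probe set belongs here when the platform annotation gives it a single gene symbol that starts with Kcn, with Scn and a digit, with Cacn, or with Trp followed by c, m, v or p. Kcnj8, Kcnj10 and Kcne3 are left out by this rule. The members fall into 4 classes by symbol. Potassium channels have 111 probe sets for 69 genes, and sodium channels 22 probe sets for 10 genes. Calcium channels have 33 probe sets for 21 genes, and TRP channels 20 probe sets for 13 genes. Grouped by symbol, the classes also hold accessory subunits, Trpc4ap and 3 transcripts named after channel genes, Kcnq1ot1, Kcnmb4os1 and Kcnmb4os2. The rule reads gene symbols alone, though it was set with earlier results of these data known.

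The cells were GFP-positive cells taken by flow sorting from pooled, papain-digested retinas of homozygous Tie2-GFP transgenic mice at postnatal day 8. Tie2 is a receptor of endothelial cells, and GFP from its promoter can also appear in some blood-derived cells. All animals had received APB5, an antibody that blocks the PDGF receptor beta on pericytes, from day 0 to day 7. Amplified RNA was hybridised to 3 replicate arrays of each of 3 Affymetrix designs (A, B and C), 9 arrays in all. Every array carries this 1 condition, so nothing here compares treated with untreated animals, and the labels do not say whether replicates came from separate pools of mice.

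Potassium channels let potassium leave the cell and set the resting potential, and in endothelium the inward rectifiers and calcium-activated members make the membrane potential more negative. Voltage-gated sodium channels start the action potential of neurons and muscle, and voltage-gated calcium channels turn depolarisation into calcium entry. TRP channels are cation channels without a strong need for depolarisation, and several of them carry calcium or magnesium into endothelial cells.

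The deposited values are linear intensities, and array medians lay between 32.3 and 44.5. Each probe set is described by its rank on its array, as a percentile from low to high over the whole design, averaged over the 3 replicates. The floor is the 40th percentile, and the upper band starts at the 75th, each to be passed on all 3 arrays. Calls above or below the array median come from limma at an adjusted p of 0.05. A percentile depends on the probes as well as on the RNA, so 2 probe sets of 1 gene can differ widely, and fewer cells with a transcript and less transcript per cell cannot be told apart in bulk RNA. Pearson correlations of log2 intensity between replicates over the members lay between 0.964 and 0.990 across designs. The label of the sorted cells was checked against marker genes. Pan-endothelial genes had a median percentile of 93.2 with 22 of 32 probe sets in the upper band, against 22.6% of all probe sets. By gene, 15 of 17 had a probe set in the upper band. Of the exceptions, Pecam1 was at percentile 52.4 and was not called (adjusted p = 0.31, limma). The other, Egfl7, had probe sets at percentiles 43.1 and 17.9, both called below the median (adjusted p = 0.019 and 0.00055, limma). Retinal neuron markers had a median of 33.0 with 5 of 54 in the upper band, of Rbpms, Elavl3, Stmn2, Tubb3 and Isl1. Photoreceptor markers had 40.3 with 0 of 15, and mural cell markers 39.2 with 1 of 21. Muller glia and astrocyte markers had a median of 31.0 with 5 of 29 in the upper band, Apoe, Car2 and Glul among them. Macrophage and microglia markers had 39.7 with 2 of 22, 1 each of Csf1r and Fcer1g. Both of these carry a mark in their names for reduced design. The unmarked probe sets of Csf1r and Fcer1g, at percentiles 38.4 and 16.5, were above the floor on no array. Plain probe sets of C1qc and Cx3cr1 on design C, at percentiles 71.8 and 70.2, were called above the median. Their other probe sets, at percentiles 46.9 and 54.3 on design A, were not called. Of the 22 macrophage and microglia probe sets, 4 were called above and 13 below.

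The promoters of the members at both ends of the arrays are shown to let their base composition be seen. They are the 2 genes with the highest plain probe sets and the 2 genes with the lowest strongest probe set, among those with 1 promoter entry in the RefSeq table (GRCm38.p6). Each is the 250 bases before the start site, 5′ to 3′ on the gene's strand, with every CG in capitals.
Kcnj2 (chr11:111065914-111066163, plus strand): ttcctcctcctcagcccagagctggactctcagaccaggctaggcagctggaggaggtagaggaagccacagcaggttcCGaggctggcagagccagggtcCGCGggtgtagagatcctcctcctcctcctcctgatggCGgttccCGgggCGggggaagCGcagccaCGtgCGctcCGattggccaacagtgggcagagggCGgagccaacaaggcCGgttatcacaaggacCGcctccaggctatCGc
Cacna1i (chr15:80286988-80287237, plus strand): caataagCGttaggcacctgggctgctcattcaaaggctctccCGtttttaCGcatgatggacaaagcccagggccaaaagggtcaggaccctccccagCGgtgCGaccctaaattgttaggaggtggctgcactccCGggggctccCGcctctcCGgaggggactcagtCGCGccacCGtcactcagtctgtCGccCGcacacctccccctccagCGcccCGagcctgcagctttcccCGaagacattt
Scn1a (chr2:66440838-66441087, minus strand): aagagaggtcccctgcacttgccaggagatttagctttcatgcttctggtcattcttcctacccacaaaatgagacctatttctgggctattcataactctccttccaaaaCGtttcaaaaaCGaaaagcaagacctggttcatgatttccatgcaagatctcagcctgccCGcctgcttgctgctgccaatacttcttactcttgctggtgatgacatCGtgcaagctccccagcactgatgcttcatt
Cacna2d1 (chr5:15934441-15934690, plus strand): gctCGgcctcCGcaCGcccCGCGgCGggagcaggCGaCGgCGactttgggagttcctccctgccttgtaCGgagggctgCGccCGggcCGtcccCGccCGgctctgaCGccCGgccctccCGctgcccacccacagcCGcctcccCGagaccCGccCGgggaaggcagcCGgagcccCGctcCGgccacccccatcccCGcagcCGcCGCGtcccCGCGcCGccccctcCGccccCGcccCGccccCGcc
These windows hold 14 CG in Kcnj2, 16 in Cacna1i, 4 in Scn1a and 36 in Cacna2d1, so the richest of them belongs to a gene whose probe sets all sat low.

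As a whole, the channels sat low on the arrays. Their median percentile was 36.3, with medians of 35.7, 36.6 and 35.6 in replicates 1, 2 and 3, against 52.1 for all named probe sets. Limma placed 49 channel probe sets (26.3%) above the array median and 113 (60.8%) below it, where 44.1% and 44% of all probe sets were called above and below. The floor was passed by 76 channel probe sets (40.9%), against 56.5% of all probe sets, and the upper band by 13 (6.99%), against 22.6%. On no array above the floor were 94 channel probe sets (50.5%), against 36.3% of all probe sets. By gene, 65 of the 113 (57.5%) had a probe set above the floor, against 72.4% of all named genes, and 13 (11.5%) had one in the upper band, against 36.0%.

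The classes differed in position, with sodium channels lowest. The median percentile was 38.9 ± 0.50 for potassium channels, 13.7 ± 0.44 for sodium channels, 35.0 ± 1.18 for calcium channels and 42.4 ± 3.26 for TRP channels (SD of the medians in 3 replicates), against 52.1 for all named probe sets. The SD covers replicate arrays only: with plain probe sets alone the sodium median was 23.8. Differences between classes were taken within each replicate and then averaged, so they need not equal the difference of these medians, which come from percentiles averaged over replicates first. By replicate the potassium medians were 39.4, 40.4 and 39.9, and the calcium medians 32.6, 34.9 and 33.5. Potassium channels lay 25.6 ± 0.34 percentile points above sodium channels and 6.20 ± 0.68 above calcium channels. Sodium channels lay 28.0 ± 3.69 points below TRP channels, and calcium channels 8.64 ± 4.12 points below them. The difference between potassium and TRP channels was -2.44 ± 3.56 points, smaller than its spread, and its sign differed between replicates. These values take arrays of equal number from the 3 designs together and are given without a test, because the members of a class are not replicates.

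The order of the classes was not the same on the 3 designs. Sodium channels had a median of 4.30 on design A (8 probe sets), 23.9 on design B (6) and 43.3 on design C (8). TRP channels had 40.3 on design A (9 probe sets), 62.0 on design B (6) and 15.1 on design C (5). Sodium channels were thus the lowest class on design A, but the highest on design C, where TRP channels were the lowest. Potassium channels stayed between 36.4 and 43.0, and calcium channels had 36.8, 23.4 and 29.1 on designs A, B and C. The designs hold different probe sets of different genes, so design and gene content cannot be told apart.

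**Figure D1:**
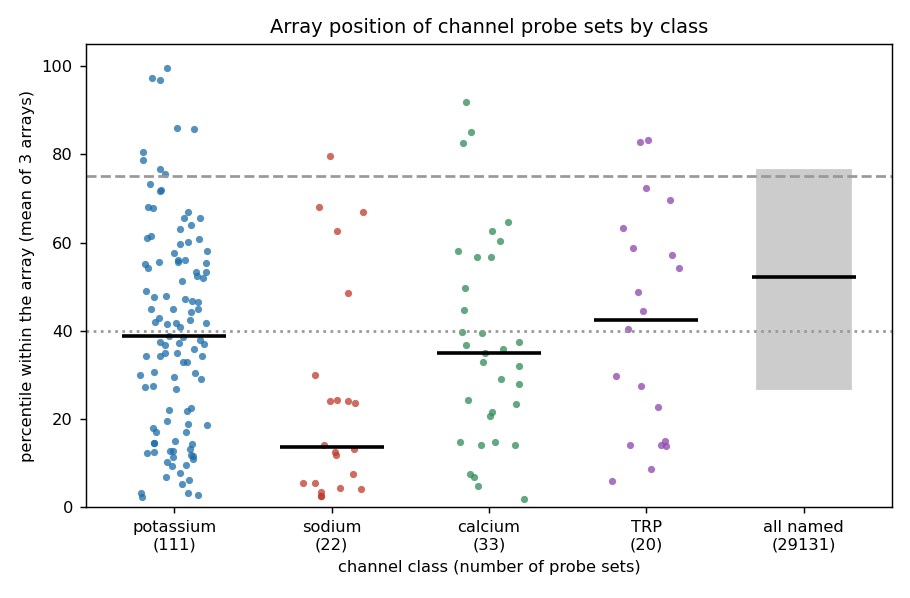
Percentile of each channel probe set within its array (vertical axis, mean of 3 arrays) by class, beside all named probe sets drawn as a box from the lower to the upper quartile. Black bars are medians, the dotted line is the floor at 40 and the dashed line the start of the upper band at 75; most sodium channel points lie near the bottom, and each class median is below the 52.1 of all named probe sets.

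Of the 13 probe sets in the upper band, 7 were of potassium, 3 of calcium, 2 of TRP and 1 of sodium channels. Design C held 10 of the 13 from 54 members, design B 2 from 52 and design A 1 from 80. Over all probe sets, the band held 2666 of 11868 on design C, 2778 of 12411 on B and 2850 of 12422 on A. The channels' share was thus closest to that of all probe sets on design C. In design C the 75th percentile was an intensity of 64.7 to 66.7, against 90.5 to 92.2 in design B and 97.1 to 101.9 in design A. All 13 were called above the array median, which passing the 75th percentile on all 3 arrays makes nearly certain, so the calls add no separate support.

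Kcnj2, the inward rectifier Kir2.1 that helps to hold the endothelial resting potential, was the highest member measured by a plain probe set. Its intensity was 397, 362 and 374 in replicates 1, 2 and 3 of design C, at percentile 97.3 and 3.53 ± 0.07 log2 units above the array median (SE; limma, adjusted p = 1.3e-06). The 3 arrays lay close together and far above the level of the upper band. A second Kcnj2 probe set, on design A, read 14.3, 13.8 and 15.6, at percentile 11.8 and 1.60 log2 units below the array median (SE 0.08, adjusted p = 1.6e-06, limma). The 2 probe sets of this gene thus gave opposite calls.

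The other high potassium probe sets included Kcnq5, Kcnc1, Kcnq3 and Kcnmb4. Kcnq5, a subunit of the slow M-type current, read 791, 1015 and 1062 on design C, at percentile 99.4, the highest of all members. That probe set carries a mark in its name for reduced design, and a plain Kcnq5 probe set on the same design read 4.39, 5.61 and 5.88, at percentile 3.27. Kcnc1, the Kv3.1 subunit of fast-firing neurons, read 357, 275 and 381 in a marked probe set of design C. Its other 3 probe sets lay at percentiles 29.9, 34.3 and 58.1, so none of them came near the marked one.

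Kcnq3, the partner of Kcnq5 in M-type channels, read 107, 110 and 103 in 1 probe set of design C and 10.3, 10.2 and 9.75 in another of the same design. These are percentiles 86.0 and 11.7, and each probe set varied little between replicates. Kcnmb4, an accessory subunit of the large-conductance calcium-activated channel, read 78.0, 79.9 and 70.6 in its higher probe set and sat at percentile 60.1 in the lower one. Both Kcnmb4 probe sets were called above the array median.

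Two-pore-domain potassium channels carry the background leak of potassium, and over the 3 designs together they had the highest median of the potassium subclasses. It was 59.3 over 12 probe sets, and limma called 8 above and 3 below the array median. Kcnk10, the mechanically gated TREK-2, read 109, 101 and 103 in its single probe set, which carries a mark in its name. Kcnk12 read 74.2, 87.9 and 83.9 in 1 probe set and 23.5, 18.2 and 29.2 in another, both on design C. Kcnk5 lay just outside the upper band at percentile 76.7, since 1 of its 3 arrays fell short. Kcnk2, the related TREK-1, read 66.8, 85.5 and 74.7 at percentile 67.9 of design A. Of the 10 genes in this subclass, 9 had a probe set above the floor, beside 72.4% of all named genes.

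On design A alone the two-pore-domain median was 46.4 (5 probe sets), below the 47.9 of calcium- or sodium-activated channels (5). Over the 3 designs together the other potassium subclasses were lower. Voltage-gated pore subunits had a median of 34.3 over 44 probe sets, with 8 (18.2%) called above and 29 (65.9%) below. Over all probe sets these shares were 44.1% and 44.0%. Inward rectifiers had 38.5 over 23 probe sets (6 or 26.1% above, 12 or 52.2% below). Calcium- or sodium-activated channels had 44.3 over 15 (4 or 26.7% above, 7 or 46.7% below). Accessory subunits had 39.4 over 14 probe sets (2 or 14.3% above, 9 or 64.3% below). Among these last, Kcnab3, a cytoplasmic beta subunit, was highest with 67.1, 72.5 and 67.4 on design A, while a second probe set on design C lay at percentile 18.9.

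The calcium-activated channels known from vessels gave split readings. Kcnn4, the intermediate-conductance channel of endothelial hyperpolarisation, read 48.0, 54.2 and 52.3 on design A, 0.22 ± 0.07 log2 units above the array median (SE; limma, adjusted p = 0.025). On design B it read 25.5, 23.9 and 24.1, at percentile 27.4 and called below. Kcnma1, the large-conductance channel best known from smooth muscle, was at percentile 53.4 in a marked probe set of design C, which was not called (adjusted p = 0.34, limma). Its plain probe set on design A lay at percentile 6.14. Kcnmb4os2, an opposite-strand transcript named after Kcnmb4, lay at percentile 75.6 and also fell short of the upper band on 1 array.

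The potassium genes with the lowest strongest probe sets were Kcnd2 and Kcnip4. Kcnd2, the Kv4.2 pore of the fast A-type current, had 3 probe sets at percentiles 2.44, 9.39 and 10.9. Kcnip4, a calcium-binding accessory subunit of Kv4 channels, read 8.08, 6.39 and 6.92, at percentile 2.71. All 4 of these probe sets were called below the array median. Other genes of the same 2 families stood higher by their strongest probe set, with Kcnip3 at percentile 61.0, Kcnd1 at 59.8, Kcnd3 at 49.0, Kcnip1 at 46.6 and Kcnip2 at 37.9.

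**Figure D2:**
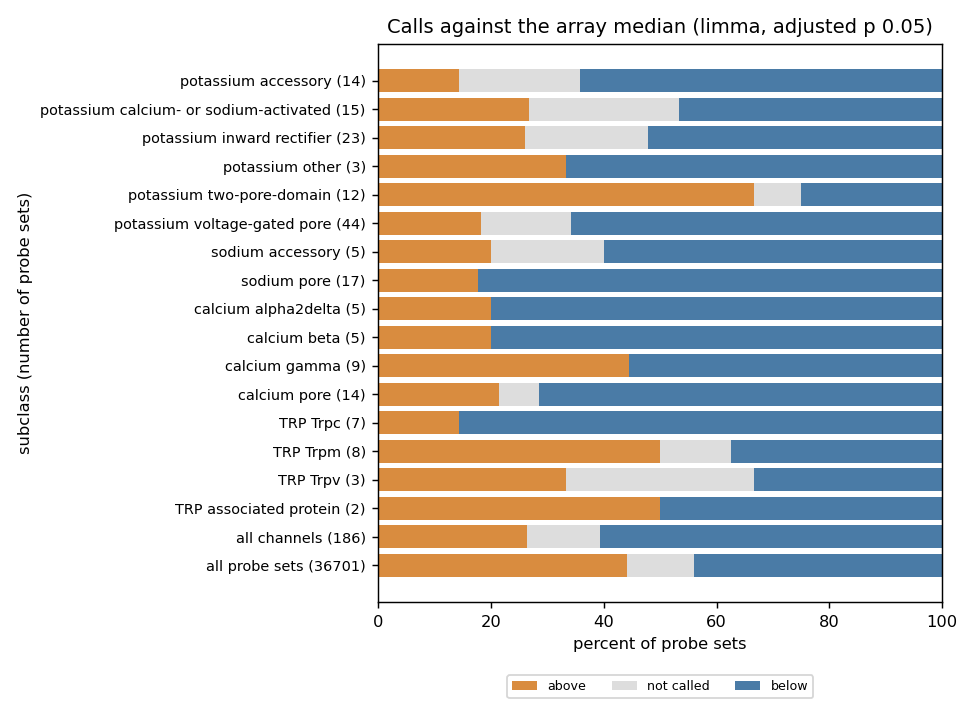
Percent of probe sets (horizontal axis) that limma called above the array median, did not call, or called below it, by subclass with the number of probe sets, and for all channels and all probe sets in the lowest bars. The two-pore-domain bar has the longest share above among the potassium subclasses, 66.7%, against 44.1% of all probe sets.

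Sodium channel probe sets were mostly at the bottom of the arrays. Limma called 4 of 22 (18.2%) above and 17 (77.3%) below the array median, against 44.1% and 44.0% of all probe sets. On no array above the floor were 17 (77.3%), against 36.3% of all probe sets. Pore subunits had a median percentile of 11.8 over 17 probe sets and accessory beta subunits 24.0 over 5. Scn1a, the Nav1.1 pore of inhibitory neurons, read 6.04, 6.79 and 5.69 in 1 probe set and 5.52, 5.21 and 8.09 in the other, both on design A. Scn3a, which is most active in the developing brain, lay at percentiles 4.16 and 11.8, and Scn9a, the Nav1.7 pore of sensory neurons, at percentiles 4.44 and 24.3. The higher of the 2 probe sets still fell below the floor for each of these 3 genes.

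The exceptions were Scn2a, Scn8a, Scn3b and Scn4b, and each of them had 1 probe set or more on either side of the floor. Scn2a, the Nav1.2 pore of neurons, read 79.6, 88.5 and 69.2 in a plain probe set of design C and 6.63, 5.78 and 7.60 in a marked one of the same design. Scn8a, the Nav1.6 pore found where axons fire, had 5 probe sets, at percentiles 3.48, 24.0, 29.9, 62.6 and 68.0. The 2 high ones are both on design C and read 46.2, 47.2 and 41.9, and 49.8, 53.3 and 53.9. Scn3b, a beta subunit, read 49.5, 46.3 and 57.2 in its higher probe set, at percentile 66.8. Scn4b, another beta subunit, reached percentile 48.6, which limma did not call apart from the median (adjusted p = 0.62).

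Calcium channel probe sets were called above the array median in 9 cases (27.3%) and below in 23 (69.7%) of 33. Over all probe sets the shares were 44.1% and 44.0%. Cacng4, a gamma subunit that in neurons accompanies AMPA-type glutamate receptors, was highest, with 356, 152 and 239 on design B. It is the only member above the floor whose replicates spanned more than 1 log2 unit (1.21), and replicate 1 was the highest. Its mean lay 2.43 ± 0.20 log2 units above the array median (SE; limma, adjusted p = 1.8e-05). A second Cacng4 probe set on the same design read 14.3, 17.9 and 16.5, below the floor on all 3 arrays. Of the related subunits, Cacng5 read 57.7, 64.5 and 73.7 at percentile 64.6 and Cacng8 read 40.9, 48.3 and 46.0 at percentile 62.6. Gamma subunits as a group had a median of 44.8 over 9 probe sets.

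Among the pores, Cacna1i, the low-voltage-activated Cav3.3, read 100, 96.1 and 109.9 in its single probe set on design C, at percentile 85.1. Cacna1h, a related low-voltage-activated pore, read 32.4, 32.0 and 31.9 at percentile 37.5 and was called below the median (adjusted p = 0.00068, limma). Cacna1c, the L-type pore of heart and smooth muscle, lay at percentiles 36.8 and 14.8 and Cacna1d, another L-type pore, at percentile 20.8. Calcium channel pores as a group had a median of 37.1 over 14 probe sets. Of these, 3 (21.4%) were called above and 10 (71.4%) below, against 44.1% and 44.0% of all probe sets.

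Cacnb1, the beta subunit of skeletal muscle channels, read 93.1, 82.8 and 92.8 in a marked probe set, its single one. Alpha2delta subunits, which carry the pore to the membrane, were the lowest calcium subclass, with a median of 7.54 over 5 probe sets. Cacna2d2 was their exception at percentile 56.7. Cacna2d1 lay at percentiles 4.81, 6.76 and 7.54 in 3 probe sets from designs A and B, so all of its readings were near the bottom of the arrays.

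**Figure D3:**
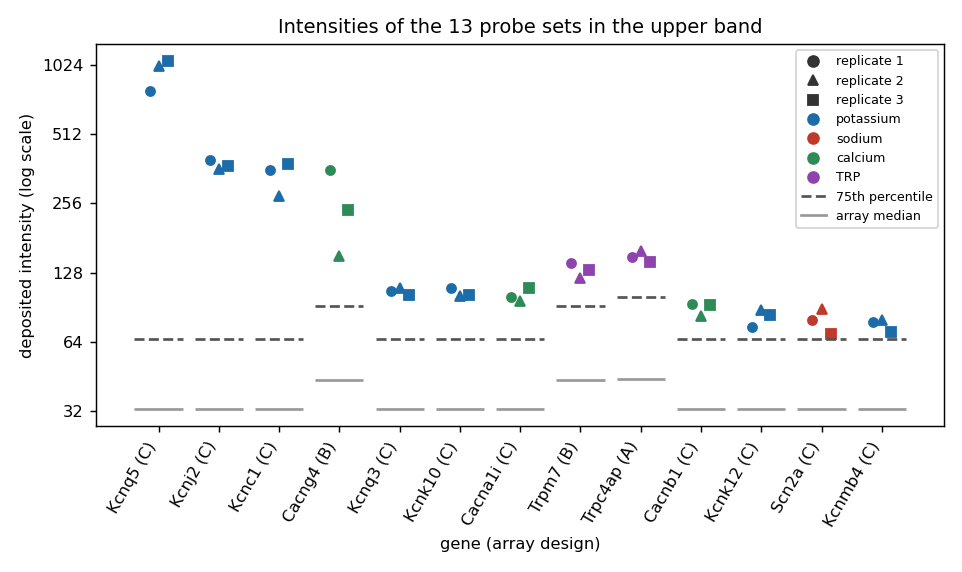
Deposited intensity on a log scale (vertical axis) of the 13 probe sets in the upper band, 1 point per replicate array, coloured by channel class and with the array design in brackets. Solid and dashed bars are the mean array median and 75th percentile of that design; Cacng4 has the widest spread, from 152 to 356.

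TRP channel probe sets were called above the array median in 7 (35.0%) and below in 11 (55.0%) of 20 cases. Over all probe sets the shares were 44.1% and 44.0%. Trpm7, a channel fused to a kinase that takes up magnesium and is found in most cells, read 141, 121 and 131 in its highest probe set on design B. Its other probe sets lay at percentile 63.4 on design C, 44.4 on design A and 13.9 on design B. Of the 4 probe sets, 3 passed the floor, and the exception shares its design with the highest one. Trpc4ap, named for its association with TRPC4, encodes no channel itself. It read 149, 159 and 143 on design A and lay at percentile 22.8 on design B.

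Trpm4, a calcium-activated channel for monovalent cations, read 83.6, 81.3 and 86.9 at percentile 72.4 and was called above the median by 0.94 ± 0.07 log2 units (SE; limma, adjusted p = 1.1e-05). Trpm1, the channel of retinal ON bipolar cells, read 52.1, 53.8 and 61.2 on design A, and on design C it was not called (percentile 48.8, adjusted p = 0.58, limma). Trpm probe sets had a median of 53.8 over 8, and 6 of them passed the floor. Trpv2, a cation channel of vascular and immune cells, read 58.9, 52.3 and 49.5. Trpv4, the osmotically and mechanically activated endothelial calcium channel, read 51.1, 44.2 and 51.3 and was not called apart from the median (adjusted p = 0.092, limma). Trpv3, known from skin keratinocytes, was low with 8.84, 7.46 and 8.83.

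Trpc channels were the low end of this class, with a median percentile of 27.5 over 7 probe sets. Of the 7, 6 (85.7%) were called below the array median, against 44.0% of all probe sets. Trpc1, a subunit of calcium entry channels, lay at percentiles 6.03, 27.5 and 29.8. Trpc4, a receptor-operated calcium channel described in endothelium, read 33.7, 30.9 and 38.7 and passed the floor on 2 of 3 arrays. Trpc6, a diacylglycerol-activated channel, read 11.2, 18.8 and 18.0, and Trpc5 read 13.3, 17.4 and 17.3. The exception was Trpc2, known from pheromone-sensing neurons in mice, with 62.8, 87.8 and 81.0 at percentile 69.7. After Cacng4 and Kcnh1, it had the widest replicate range of the members above the floor (0.50 log2 units). Kcnh1, an ether-a-go-go potassium channel, had a range of 0.67 and was not called (adjusted p = 0.17, limma), with a second probe set at percentile 21.7.

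Probe sets of 1 gene often disagreed. Of the 51 channel genes with more than 1 probe set, 8 (15.7%) had one in the upper band and another below the floor on all arrays, against 24.7% of 7645 genes. Fewer channel genes reached the upper band at all (11.5% against 36.0%), so the lower share is not a measure of closer agreement. The median gap between the highest and lowest probe set was 26.4 percentile points for the channels and 37.6 for all such genes. The widest gaps were 96.2 points for Kcnq5, 85.5 for Kcnj2 and 76.9 for Cacng4. Of the 13 genes in the upper band, 9 are there by a plain probe set and 3 have no second probe set to set beside it. The 8 genes with a probe set below the floor on every array are also among these 13.

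**Figure D4:**
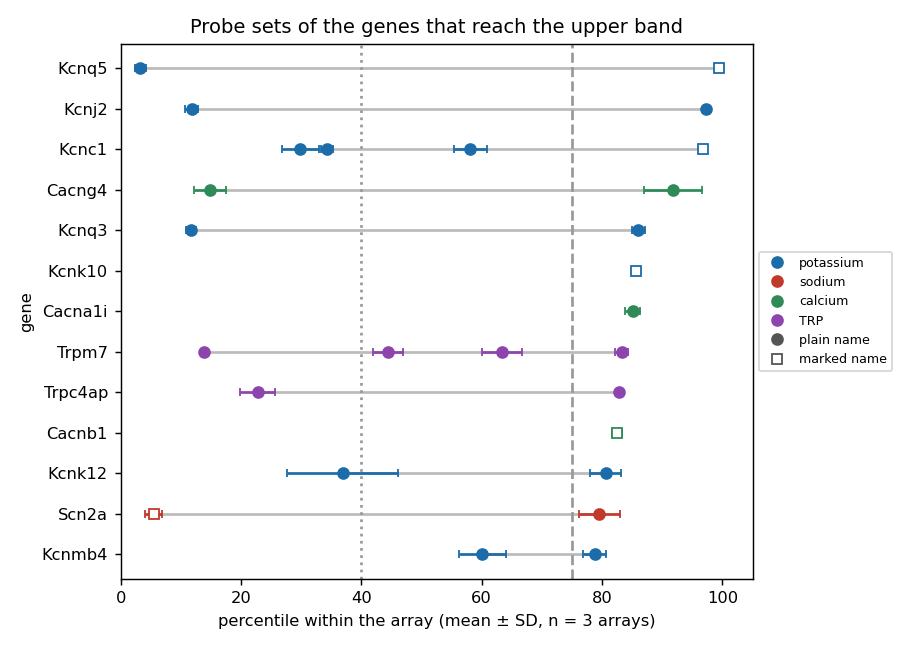
Percentile within the array (horizontal axis, mean ± SD of 3 arrays) of every probe set of the 13 genes with a probe set in the upper band; filled circles are plain probe sets and open squares those whose names carry a mark. Grey lines join the probe sets of a gene, and the lines for Kcnq5, Kcnj2 and Cacng4 are the longest.

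Channels were also grouped by the cell type in which they have been described. Those described in endothelial cells had a median percentile of 40.3 over 35 probe sets, of which 9 (25.7%) were called above and 21 (60.0%) below. These shares were near the 26.3% and 60.8% of all channels, beside 44.1% and 44.0% of all probe sets. Those described in neurons and photoreceptors had a median of 29.9 over 79, with 17 (21.5%) above and 52 (65.8%) below. Those described in muscle had 37.8 over 22, with 4 (18.2%) above and 14 (63.6%) below. In the upper band were Kcnj2 and Trpm7 of the endothelial group, Kcnc1, Kcnq3, Scn2a, Cacna1i and Cacng4 of the neuronal group, and Cacnb1 of the muscle group. Genes of other tissues, chosen as foreign to the retina, had a median of 28.7 with 3 of 54 probe sets in the upper band. That is 5.56%, beside 6.99% of the channels. All 3, of Prm1 and Ckm, were marked probe sets of design C. Of the 13 channel probe sets in the band, 10 were on design C as well, and 9 of the 13 were plain. The part of transcripts from other cells in the channel readings was not tested.

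Other transport proteins stood near the level of all genes. A list of other ion channels, calcium release proteins and ion pumps had a median of 51.8, against 52.1 for all named probe sets, with 22 of 93 probe sets (23.7%) in the upper band, against 22.6% of all. Its highest genes were Piezo1, the mechanically activated channel that senses flow in endothelium, at percentile 99.9, and Atp1b3, a sodium pump subunit, at percentile 99.5. Ano6, a lipid scramblase, Mcoln1, a lysosomal cation channel, and Itpr2, a calcium release channel, followed at percentiles 99.2, 96.9 and 95.6 by their strongest probe sets. Mcoln1 had a second probe set, and Itpr2 had 3 of 6, below the floor on every array. Classes went by symbol alone, so the Mcoln and Pkd genes of this list are not counted in the TRP class.

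**Figure D5:**
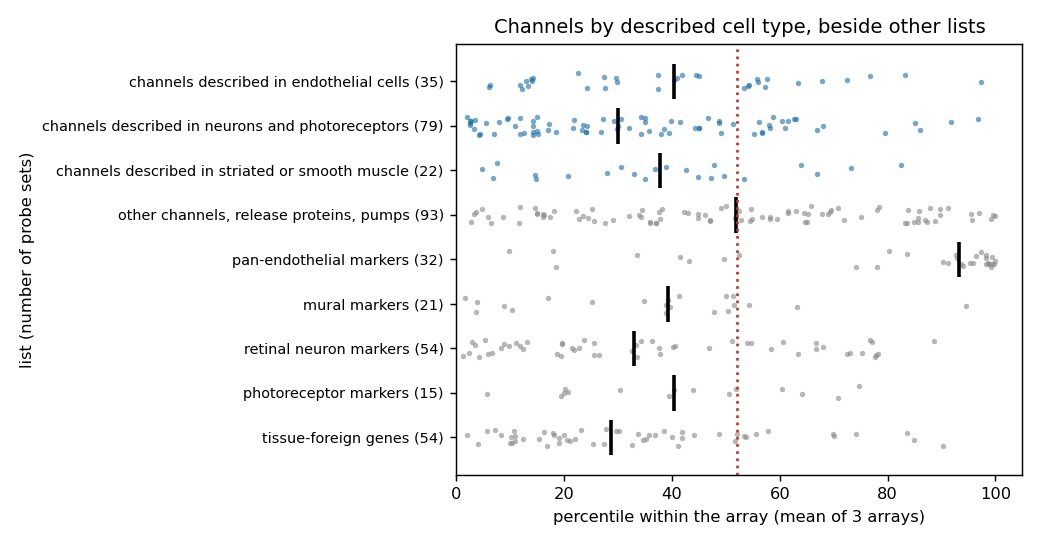
Percentile within the array (horizontal axis, mean of 3 arrays) of the probe sets of each list, 1 point each, with the median as a black bar; channel lists are blue and other lists grey. The red dotted line is the median of all named probe sets, 52.1, and only the pan-endothelial markers, with a median of 93.2, have their bar to the right of it.

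The base composition of the promoters was also set beside position on the arrays. In windows of 300 bases (250 before to 50 after the start), 87 of the 113 genes were matched to 121 RefSeq promoters. The dinucleotide CG, which reads the same on both strands, occurred a median of 18 times where the gene had a probe set in the upper band, 10 times where it only passed the floor and 9 times where it did neither. Over all measured genes the medians were 22, 17 and 9. At least 1 CG was found in 100% of the channel promoters and in 98.3% of those of all measured genes. The Spearman correlation between CG count and the percentile of the strongest probe set was 0.10 over 87 channel genes and 0.33 over 12651 genes. Genes share base composition within families, and these values are descriptions. As the windows of Scn1a and Cacna2d1 show, low genes stood at both ends of the CG count.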

How the data were processed

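Values were read from the 3 series tables, 1 per array design. The authors deposited 1 linear intensity for each probe set and array. No source used here gives the summary algorithm, scaling or background correction. Per the labels, RNA was amplified before labelling, which can alter the relative levels of transcripts. Zeros (7 in all, 0 among members) were replaced by the array's smallest positive value before taking log2. Gene symbols came from the platform annotation: 29131 probe sets have 1 symbol, 724 several and 6846 none. All 113 member genes were found in RefSeq by Entrez ID, with 0 symbol changes.

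Log2 intensity minus the log2 array median was tested against 0 with an intercept-only limma fit (version 3.58.1, R 4.3.3), designs apart, with empirical Bayes variances and Benjamini-Hochberg adjustment over all probe sets of a design. Tested on simulated data, the fit recovered most but not all changed probe sets; the recovery asked for was lowered after 1 size of change fell just short of it, and the fit was left as it was. With 3 arrays a design, p-values reflect only how these arrays vary, and that variation may be technical. Their number limits the precision.

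Genes named are, per class, the 5 highest and 2 lowest by strongest probe set; the highest of each subclass; the 3 with the widest replicate range; the 3 with the widest gap between probe sets; the 5 highest of the other-channels list; upper-band genes of the role lists; and 23 preset genes. Of the latter, 7 were not analysed here. Kcnk12 and Kcnk5 were added after their values were seen, as an upper-band gene and as one just outside the band, and Kcnd and Kcnip relatives and marker genes likewise. The members and lists were chosen with earlier results of these data known.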

Additional observations from a re-analysis of the deposited data

How the results depend on the processing

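Of the calls against the array median, 44 to 49 of the 49 above and 87 to 113 of the 113 below remained under an offset of 50, an intensity trend, quantile normalization, the 40th percentile as level, or without 1 replicate, and none turned. Against the 40th percentile, 68 channel probe sets were above and 87 below, and potassium channels had 44 above where the array median gave 29. The class medians moved more. With plain probe sets alone the median percentile was 37.4 for all channels, 40.9 for potassium, 23.8 for sodium and 48.8 for TRP channels, against 53.7 for all named probe sets. Taking each gene's strongest probe set, it was 47.8 for all channels, 49.0 for potassium, 19.2 for sodium, 39.7 for calcium and 54.2 for TRP channels, against 65.9 over all genes, as a maximum over probe sets must be higher. On design A alone it was 35.0 for all channels, 36.4 for potassium, 4.30 for sodium and 36.8 for calcium channels, against 51.4. Leaving out 1 replicate at a time gave 35.4 to 36.8 for all channels, 38.8 to 39.9 for potassium and 32.9 to 36.2 for calcium channels. The count of members spanning more than 1 log2 unit was 0 to 1, as Cacng4 dropped out without replicate 1 or 2; the cause was not tested. No paired analysis was possible because the designs share no probe set and all arrays carry 1 condition.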
